A study of Arabidopsis thaliana with 24 samples.

Results

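A set of 160 probe sets, of 18751 tested on Affymetrix ATH1 arrays, measured Arabidopsis thaliana transcripts that were abundant in dark-grown wild-type seedlings and low both in light-grown wild type and in dark-grown mutants of the COP9 signalosome. Members were chosen on group means of log2(signal + 50): the wild-type value in light lay at least 2 below that in darkness, and the value of each of 3 dark-grown mutant lines lay at least 2 below wild type in darkness. In all, 167 probe sets met these limits and 7 of them were left out by name. The first mutant line was csn3-1, called csn3 here, and the second was csn4-1, called csn4. The third was labelled csn5 (csn5a-2 csn5b), for mutations in both genes of the fifth subunit. The wild type (WT) carried none of these mutations. Every line was grown in light and in darkness, and whole seedlings were collected at an age of 7 days, with 3 arrays in each of the 8 groups and 24 in all, which the study's design text calls independent biological replicates. Of the csn3 dark arrays, 2 are titled replicate 1, and the second of these is called replicate 3 here. Light is not named in the titles of the csn4 light arrays, which were grouped by their descriptions. Seedlings were harvested in bulk, so that fewer cells of a type and less RNA per cell cannot be told apart.

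The COP9 signalosome is a nuclear protein complex that removes the ubiquitin-like protein NEDD8 from cullin subunits of ubiquitin ligases and so keeps these ligases cycling. Its mutants were found because dark-grown seedlings open their cotyledons and keep a short hypocotyl, features otherwise seen in light. A wild-type seedling in darkness elongates its hypocotyl, keeps its cotyledons closed and lives on stored reserves, and transcripts for nutrient recycling and cell wall change belong to that state.

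In dark-grown WT, group mean signals of the members ran from 282 to 25879 with a median of 2316. Of the 160 members, 75 had 1 gene name, 5 had several and 80 were unnamed here. The named members lay on all chromosomes, 24 on chromosome 1, 16 on chromosome 2, 9 on chromosome 3, 10 on chromosome 4 and 16 on chromosome 5. Among them, AT1G19530 and AT1G19540 were neighbours in the gene table, as were AT5G23830 and AT5G23840. Just inside the limits lay AT2G32150 and AT1G62770, for which the smallest of the 4 differences was -2.02 for both, and the probe set 245976_at at -2.004. Just outside lay 248728_at, 246390_at and SUFE2, a sulfur carrier activator of iron-sulfur cluster assembly, each at -1.99.

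The array medians over the members show the pattern that chose them. In dark-grown mutants the median member signal was 173, 254 and 185 in the csn3 arrays, 213, 277 and 245 in the csn4 arrays and 147, 179.7 and 149 in csn5-labelled arrays, against 2266, 2309 and 2322 in WT dark. In light it was 146, 144 and 146 in csn3 arrays, 185, 195 and 143 in csn4 arrays and 96.4, 88.0 and 147 in csn5-labelled arrays, against 217, 241 and 222 in WT light. The WT dark arrays stood apart from all 21 others, and the remaining groups lay close to each other and somewhat below the median of all probe sets tested.

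**Figure D1:**
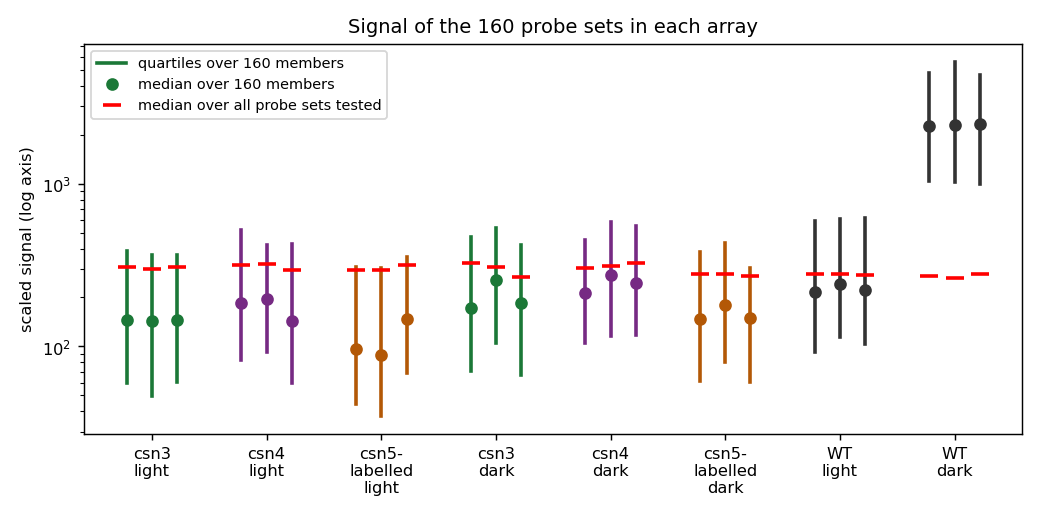
Scaled signal (log axis) of the 160 members in each of the 24 arrays: points are medians, bars span the quartiles over members, and red dashes mark the median of all 18751 probe sets tested. WT dark medians lie at 2266 to 2322, and every other array lies at or below 277.

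In each dark mutant array, 33 to 66 of the 160 members had a signal under 100. Of the 160, 12 stayed under a signal of 100 in all 9 dark mutant arrays, 83 were at 100 or more in all 9, and 6 at 1000 or more in all 9. In light-grown mutants 22 were under 100 in all 9 arrays and 61 at 100 or more in all 9. WT light had 34 members under 100 in all 3 arrays and 111 at 100 or more in all 3. Counts over 9 and over 3 arrays cannot be compared directly. By array, 42 to 85 members were under 100 in light mutants and 36 to 46 in WT light. Of all probe sets tested, 10.8% to 26.9% were under 100 in an array. In WT dark all 160 were at 100 or more in all 3 arrays and 103 at 1000 or more. No call of presence or absence was used, so a signal under 100 is a low signal and not a sign that the transcript was absent.

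The size of the dark difference varied across the set. In the mean of the 3 mutants the difference from WT in darkness had a median of log2 -3.03 over members and ran from -6.09 to -2.17. By line, the medians were -3.09 in csn3, -2.81 in csn4 and -3.29 in csn5-labelled arrays. WT light minus WT dark had a median of -2.82 and ran from -6.94 to -2.02. These contrasts defined the set and are descriptions. Each of the 160 members had every WT dark array above every dark mutant array, an arrangement found in 15.8% of all probe sets tested, and every WT dark array above every WT light array, found in 28.4%. Both counts follow from the rule. All 160 were also called lower in the averaged dark mutants, where 11.7% of all probe sets were, and lower in WT light than WT dark, where 9.77% were. To be called, a probe set needed a log2 difference of 1 or more in either direction, with a Benjamini-Hochberg adjusted p below 0.05, in a limma fit of all probe sets tested.

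Arrays differed in ways the groups do not settle. Replicate correlations ran from 0.884 in csn4 light to 0.988 in WT light. The ratio of 3' to 5' actin signal, a sign of RNA quality, was 6.12 to 27.5 in dark mutants and 2.26, 21.3 and 4.79 in WT dark, and it exceeded 2 times the median in 3 arrays, csn3 dark 1, csn4 light 2 and WT dark 2. Without those 3 arrays the rule gave 160 probe sets, and within WT dark the members' median excess over the mean of the dark mutants was 3.03, 3.11 and 3.06 on the log2 scale in the 3 arrays, with 155, 154 and 157 members at least 2 higher. In light every mutant array had a higher actin ratio than every WT array, at 5.17 to 48.9 in mutants, against 2.44, 3.12 and 2.87 in WT, and the ratio for GAPDH was 1.39 to 6.28 in mutants, against 1.02, 1.04 and 1.03 in WT. The csn4 and WT light arrays share 1 range of sample numbers and all other arrays another. WT light against dark, csn4 light against csn4 dark, csn3 or csn5-labelled light against WT light, and every dark mutant line against WT light cross these ranges, and range and group cannot be told apart there. CSN5B was higher in csn5-labelled arrays than in WT, at 1790, 1897 and 1573 against 124, 118 and 177 in darkness and at 895, 869 and 651 against 110.0, 123 and 119 in light. The position of its probes relative to the mutation is unknown here, so that line is called csn5-labelled, and the other mutated genes, CSN3, CSN4 and CSN5A, had no probe set named here.

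Among the 75 named members, 36 were given a role from textbook knowledge, and the largest such group acts in the cell wall and apoplast. The abundant member AT2G37130, which encodes a class III peroxidase, an enzyme family that crosslinks or loosens wall polymers, had signals of 1649, 1944 and 1409 in csn3 arrays, 818, 2462 and 1523 in csn4 arrays and 950.0, 1424 and 760.3 in csn5-labelled dark arrays, against 16729, 16299.8 and 15378 in WT dark. In light it had 757, 973 and 866 in csn3 arrays, 439, 544 and 686 in csn4 arrays and 252, 392 and 425 in csn5-labelled arrays, against 2342, 2132 and 2067 in WT light. No mutant array reached any WT light array in light, and only csn4 dark replicate 2 passed that level in darkness. The dark difference was log2 -3.53 ± 0.21 and the light difference -1.89 ± 0.21, and by line the light difference was -1.29 in csn3, -1.90 in csn4 and -2.48 in csn5-labelled arrays.

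The other 3 peroxidase members differed among themselves in light. AT5G66390 had 114 to 385 (median 142) in the 9 dark mutant arrays, against 2197, 1305 and 1907 in WT dark, and 34.1 to 186 (median 116) in light mutants, against 199, 318 and 351 in WT light. AT3G01190 had 192 to 494 (median 330.2) in dark mutants, against 2688, 1588 and 2144 in WT dark, and its light difference of -0.95 ± 0.21 fell short of the size asked of a call. The dimmest of them, AT1G49570, had 69.7 to 161 (median 86.1) in dark mutants, against 948, 878 and 979.5 in WT dark, and in light its mutant arrays overlapped those of WT (difference 0.00 ± 0.27). Thus AT2G37130 and AT5G66390 were called lower in light mutants than in WT and the other 2 were not, beside 9.21% of all probe sets called lower. AT5G66390, at -1.20 ± 0.26, and AT3G01190 lay close to the size limit on either side, and differences between genes were not tested.

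A gene of pectin modification had the largest dark difference of the wall group. ATPMEPCRD, a pectin methylesterase, had 4.80, 72.9 and 76.0 in csn3 arrays, 106, 16.8 and 101 in csn4 arrays and 82.6, 65.3 and 8.90 in csn5-labelled dark arrays, against 2999, 2253 and 2297 in WT dark. Its dark mutant arrays were near or under 100, and its light mutant arrays overlapped WT, at 18.6 to 149.8 (median 31.2) in mutants and 159.6, 127 and 97.5 in WT. The log2 differences were -4.64 ± 0.32 in darkness and -0.90 ± 0.32 in light. AT1G62770, of the pectin methylesterase inhibitor family, had 60.9 to 209 (median 111) in dark mutants, against 2210.4, 1062 and 1469.6 in WT dark. In light it separated the genotypes, with 33.4 to 182 (median 85.1) in mutants against 315, 341 and 355 in WT. AT2G43610, of the chitinase family, likewise had 146 to 525 (median 265) in light mutants, with no overlap with 587, 849 and 845 in WT light. AT4G13580, of the dirigent family that steers phenolic coupling, had a dark difference of -3.52 ± 0.25 and a light difference of -0.82 ± 0.25. The extensin-like AT1G26250 was dim everywhere but in WT dark, at 232, 878 and 525 there, against 13.2 to 125 (median 64.5) in dark mutants. Over the 9 wall and apoplast members, 4 were called lower and 0 higher in light mutants than in WT (9.21% and 11.4% of all probe sets tested), with a median of -0.95.

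Proteases formed a small group. SBT4.12, a subtilase or subtilisin-like serine protease, had 406, 563 and 345 in csn3 arrays, 515, 443 and 611 in csn4 arrays and 240.4, 345 and 207 in csn5-labelled dark arrays, against 3899.9, 5805 and 3679.7 in WT dark. In light it had 282, 316 and 243 in csn3 arrays, 232, 483 and 444 in csn4 arrays and 98.2, 109 and 45.3 in csn5-labelled arrays, against 517, 703 and 695 in WT light, so that all mutant arrays lay below WT and the csn5-labelled arrays lay lowest. A second subtilase, ATSBT5.2, had 8.20 to 103 (median 66.6) in dark mutants, against 1669, 1256 and 1892 in WT dark, and a light difference of -1.48 ± 0.30. The cysteine protease CP1 had 102 to 277 (median 183) in dark mutants, against 1297, 779 and 1490.3 in WT dark, and was not called in light (-0.53 ± 0.22). Of these 3 members, both subtilases were thus called lower in light and 0 were called higher, beside 9.21% and 11.4% of all probe sets tested.

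Members for lipid transfer and small secreted proteins included some of the largest dark differences. The defensin-like AT4G22212, of a family of small cysteine-rich secreted peptides, had 436, 395 and 293 in csn3 arrays, 400.5, 502 and 543 in csn4 arrays and 191, 212 and 183 in csn5-labelled dark arrays, against 7463, 13577 and 5626 in WT dark. In light it had 331, 257 and 266 in csn3 arrays, 249.6, 403 and 389 in csn4 arrays and 61.9, 88.2 and 162 in csn5-labelled arrays, against 995, 1205 and 1023 in WT light. Every mutant array was below every WT array in both conditions, and the csn5-labelled arrays were lowest in both. Its differences were -4.46 ± 0.20 in darkness and -2.06 ± 0.20 in light. The other defensin-like member, AT2G43535, differed less in darkness (-3.48 ± 0.18) and by -0.47 ± 0.18 in light, with mutants at 383 to 624 (median 493) and WT at 879, 594 and 652.

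The neighbours AT5G23830 and AT5G23840 both encode proteins with an MD-2-related lipid recognition domain. AT5G23830 had 83.8 to 299 (median 149) in dark mutants, against 3548, 5606 and 3536 in WT dark, and 52.6 to 263 (median 113) in light mutants, against 492, 605 and 653 in WT light. AT5G23840 had 12.3 to 128 (median 46.2) in dark mutants, against 1319, 1861 and 867 in WT dark, and 18.2 to 97.3 (median 63.5) in light mutants, against 65.0, 117 and 153 in WT light. The first separated genotypes in light by -1.97 ± 0.25, whereas the mutant and WT arrays of the second overlapped there (-0.55 ± 0.29). Of the 3 lipid-transfer family members, which carry lipids in the apoplast, AT4G22610 had 4.50 to 405 (median 64.0) in dark mutants, against 2112, 3607 and 1177 in WT dark. Its light difference was -1.16 ± 0.38 and was called, while AT3G22570 (-0.94 ± 0.30) and AT2G37870 (-0.48 ± 0.24) were not. Of the 7 members of this group, 3 were called lower and 0 higher in light (9.21% and 11.4% of all probe sets), with a median of -0.94.

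**Figure D2:**
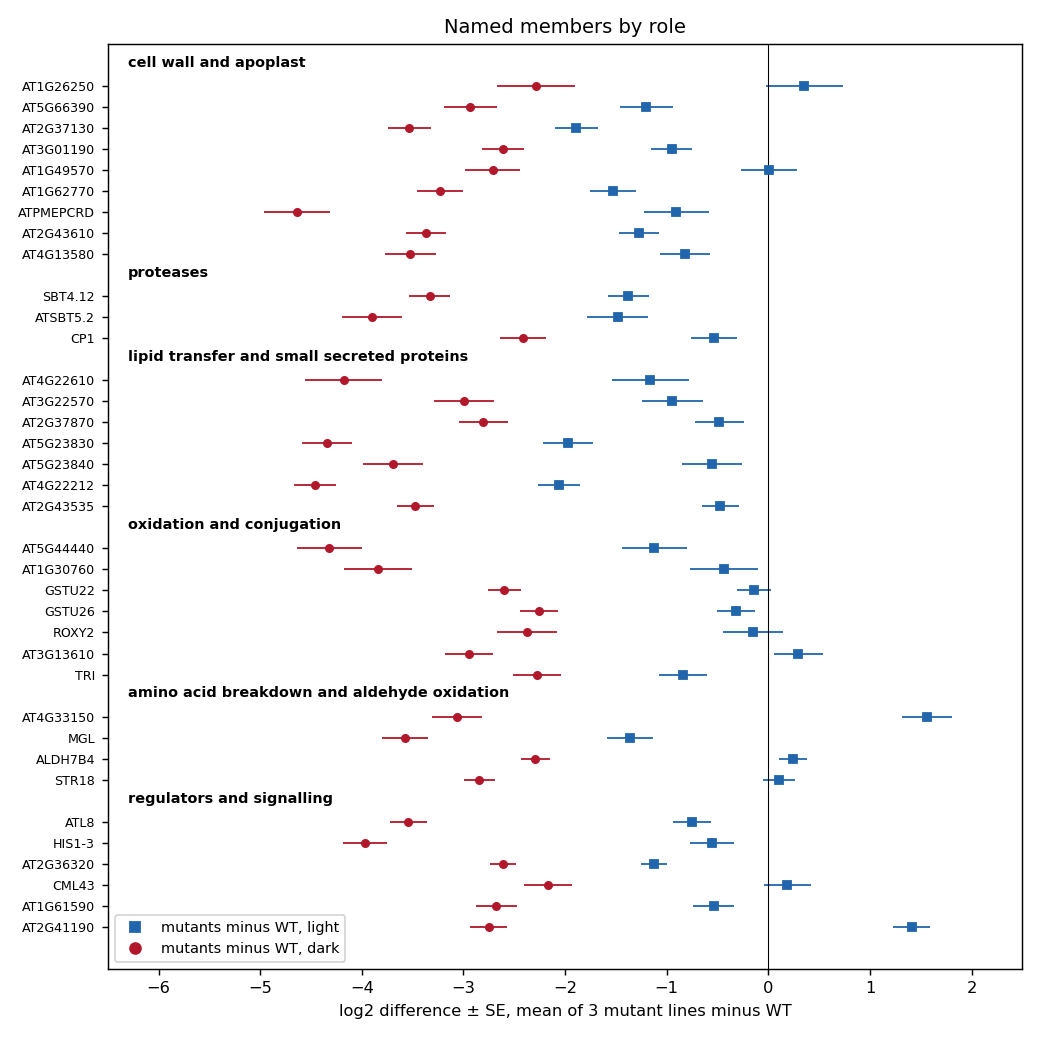
Log2 difference ± SE of the mean of the 3 mutant lines from WT in light (blue squares) and in darkness (red circles) for the 36 named members with a role given, by role. All dark values lie at or below -2.17, as the rule requires, and light values run from -2.06 (AT4G22212) to 1.56 (AT4G33150).

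A further group of 7 members acts in oxidation and conjugation. AT5G44440, a berberine bridge enzyme-like oxidase, had 8.20, 66.7 and 5.80 in csn3 arrays, 7.00, 11.8 and 23.2 in csn4 arrays and 30.3, 77.0 and 14.2 in csn5-labelled dark arrays, against 2129.6, 577 and 2293 in WT dark, where replicate 2 was lowest. AT1G30760, of the same family, had 3.80 to 86.0 (median 18.4) in dark mutants, against 1689.5, 417 and 1305 in WT dark, with the same replicate lowest. The glutathione transferase GSTU22, which conjugates toxic compounds to glutathione, had 144 to 406 (median 314) in dark mutants, against 1644, 1977 and 2556 in WT dark. Here the median of the dark mutants lay between the light arrays and WT dark: GSTU22 had 81.1 to 189 (median 138) in light mutants and 151, 166 and 154 in WT light. AT3G13610, the feruloyl-CoA hydroxylase of scopoletin synthesis, had 142 to 280.2 (median 202) in dark mutants, against 1669, 1774 and 2346 in WT dark, and overlapped WT in light (0.29 ± 0.24). The dark differences of GSTU26, of the glutaredoxin ROXY2 and of the tropinone reductase TRI were -2.26, -2.38 and -2.27. In light, 1 of the 7 members of this group, AT5G44440, was called lower (-1.12 ± 0.32) and 0 higher, a share near the 9.21% of all probe sets called lower.

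Enzymes of amino acid breakdown and aldehyde oxidation split in light. AT4G33150 encodes the bifunctional lysine-ketoglutarate reductase and saccharopine dehydrogenase that starts lysine breakdown, and it had 1655, 613 and 415 in csn3 arrays, 751, 769.6 and 1118 in csn4 arrays and 591, 460.5 and 438 in csn5-labelled dark arrays, against 5880.1, 6010.5 and 6446 in WT dark. In light it had 1859, 1345 and 1042 in csn3 arrays, 1639, 1741 and 1467 in csn4 arrays and 1652, 1149.9 and 950.0 in csn5-labelled arrays, against 543, 457 and 340.5 in WT light. The order of the genotypes thus turned between the conditions: lower than WT in all 9 dark arrays (-3.06 ± 0.24) and higher in all 9 light arrays (1.56 ± 0.24). MGL, the methionine gamma-lyase, was lower in both, with 181 to 639 (median 353) in dark mutants against 5542, 4402 and 4138 in WT dark and 60.3 to 276 (median 186) in light mutants against 617, 449 and 525 in WT light. ALDH7B4, an aldehyde dehydrogenase of stress responses, kept a high level in every group, at 2031 to 3558 (median 2543) in dark mutants against 12679.6, 14049 and 12152 in WT dark. Its arrays in light ran from 2231 to 3956 (median 2811) in mutants, against 2789, 2387 and 2351 in WT, and the 3 csn5-labelled arrays were the highest of them. The sulfurtransferase STR18 had a dark difference of -2.85 ± 0.15 and a light difference of 0.10 ± 0.15, with overlapping arrays in light.

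Among regulators and signalling genes, HIS1-3, a linker histone variant induced by drought, had 188, 249 and 129 in csn3 arrays, 214, 350.4 and 274 in csn4 arrays and 164, 195 and 124 in csn5-labelled dark arrays, against 3981, 3271 and 4499 in WT dark. Its light arrays had 47.1 to 142 (median 124) in mutants, against 247, 184 and 95.8 in WT. Its difference between WT light and WT dark (-4.19 ± 0.26) was the largest of any named member. ATL8, a membrane RING-type ubiquitin ligase of the ATL family, had 157 to 441 (median 299) in dark mutants, against 3669, 4578 and 3224 in WT dark. AT2G36320, an A20/AN1 zinc finger protein of stress responses, had 1024 to 1419 (median 1195) in dark mutants, against 6964, 7746 and 8052 in WT dark. This gene gave a narrow range in every group, and in light its mutants (479.8 to 904 (median 717)) lay below WT (1552, 1874 and 1457). The amino acid transporter family member AT2G41190 had 170.1 to 405 (median 314) in dark mutants, against 2501, 2269 and 2449 in WT dark. In light it had 499, 503 and 317 in csn3 arrays, 501, 415 and 388 in csn4 arrays and 548, 596 and 435 in csn5-labelled arrays, against 187, 113 and 133 in WT light, so that every mutant array lay above every WT array. CML43, a calmodulin-like calcium sensor, and the protein kinase family gene AT1G61590 had dark differences of -2.17 ± 0.23 and -2.68 ± 0.20 and were not called in light.

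Members without a role given here held further high signals and large differences. AT1G12080 had 40.1, 67.8 and 17.2 in csn3 arrays, 169.7, 453 and 270.0 in csn4 arrays and 115, 340.0 and 125 in csn5-labelled dark arrays, against 9282, 5219.7 and 8413 in WT dark, the steepest dark difference of a named member (-5.32 ± 0.26). In light it had 28.7 to 166 (median 61.4) in mutants, against 1156, 850.2 and 789.8 in WT. AT1G19530 had 466 to 1877 (median 1016) in dark mutants, against 13171, 17993 and 15929 in WT dark.

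AT2G37750 had 426 to 1344 (median 738) in dark mutants, against 9812, 15947 and 9935 in WT dark. AT1G73120 had 300.5 to 1678 (median 807) in dark mutants, against 9589.6, 10971 and 9616 in WT dark. The dark mutant arrays of both overlapped those of WT light, with 677, 1058 and 841 for AT2G37750 and 899, 951 and 785 for AT1G73120 in WT light. AT3G48970 had 18.1 to 153 (median 80.3) in dark mutants, against 2190.0, 3610.3 and 1909 in WT dark, a difference of -4.40 ± 0.31. The highest member of all, 254828_at, unnamed here, had 206 to 604 (median 259.6) in dark mutants, against 24545, 39254 and 13839.6 in WT dark, and spread widely among the WT dark arrays.

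**Figure D3:**
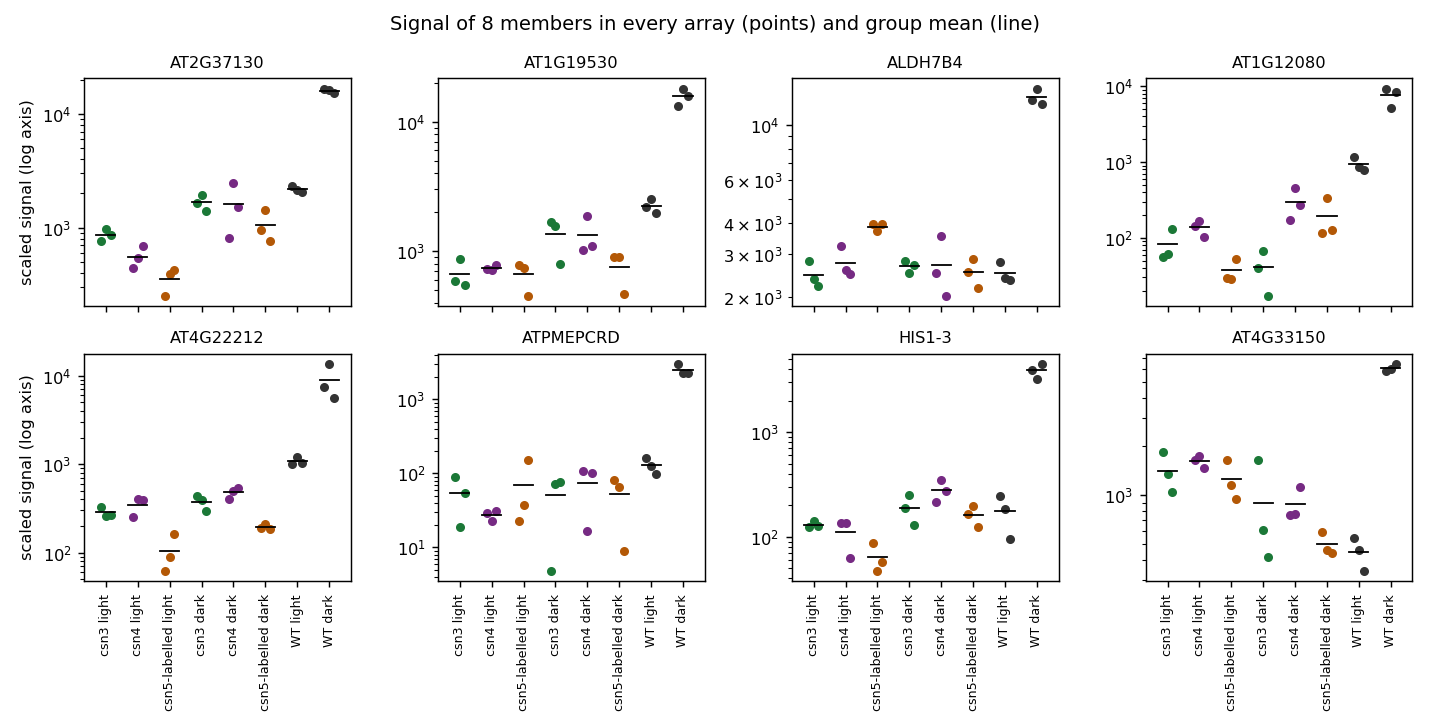
Scaled signal (log axes that do not start at 0) of 8 members in every array (points) with group means (lines), for light and dark mutants, WT light and WT dark. In each panel the 3 WT dark arrays lie above all others, and AT4G33150 alone of the 8 has all 9 light mutant arrays above all 3 WT light arrays.

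The arrays of light-grown mutants were not used to choose the members, and they show the level of these transcripts in mutants outside darkness. WT dark stayed above every light mutant array in 157 of 160 members (16.9% of all probe sets tested), a count that the choice of members for high WT dark arrays largely fixes. Against WT light, whose arrays did serve the rule, the mean of the mutants had a median difference of log2 -0.54 over members, while the median of all probe sets tested was 0.18. With quantile normalization these medians were -0.69 and 0.02. Of the 160 members 38 were called lower and 9 higher, beside 9.21% and 11.4% of all probe sets, and 113 were not called. Every light mutant array lay below every WT light array in 49 members, an arrangement found in 17.1% of all probe sets, and above in 13, found in 22.6%. The actin and GAPDH ratios were higher in every light mutant array than in every WT light array, and the part of RNA quality in these counts was not tested.

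By line, 35 members were called lower and 6 higher in csn3 light (9.31% and 11.6% of all probe sets). For csn4 the counts were 36 and 10 (9.62% and 14.5%), and 57 and 12 for csn5-labelled arrays (10.4% and 10.9%). The medians over members were -0.53, -0.26 and -0.65, and those of all probe sets 0.15, 0.21 and 0.13. The csn4 comparison lies within 1 range of sample numbers and the other 2 cross ranges. All 3 comparisons share the WT light arrays.

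The 6 named members lowest in light mutants relative to WT were AT1G12080 (-2.93 ± 0.26), AT2G21045, an arsenate reductase (-2.11 ± 0.18), AT4G22212, AT5G23830, AT2G37130 and AT5G26270 (-1.71 ± 0.22). AT2G21045 had 156, 204 and 175 in csn3 arrays, 118, 201 and 184 in csn4 arrays and 91.9, 126 and 60.5 in csn5-labelled light arrays, against 556, 889.6 and 915 in WT light. AT5G26270 had 101, 68.3 and 147 in csn3 arrays, 194, 264 and 108 in csn4 arrays and 55.4, 84.8 and 152 in csn5-labelled light arrays, against 548, 470.0 and 505 in WT light. No mutant array of these 6 genes reached the lowest WT light array.

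At the other end, 3 named members were called higher in light mutants: AT4G33150, AT2G41190 (1.41 ± 0.18) and AT1G05340, of the cysteine-rich transmembrane module family (1.25 ± 0.16). AT1G05340 had 727, 903 and 672 in csn3 arrays, 869, 660.2 and 721 in csn4 arrays and 852, 758 and 755 in csn5-labelled light arrays, against 353, 304 and 232 in WT light. In darkness it had 473 to 1221 (median 664) in mutants, against 4257, 5794 and 4055 in WT, so its light mutant arrays lay within the range of the dark ones. The next named members, AT2G44010, AT2G15220 and AT1G10140, had light differences of 0.55, 0.55 and 0.40 and were not called. The other 6 of the 9 called higher were probe sets unnamed here.

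**Figure D4:**
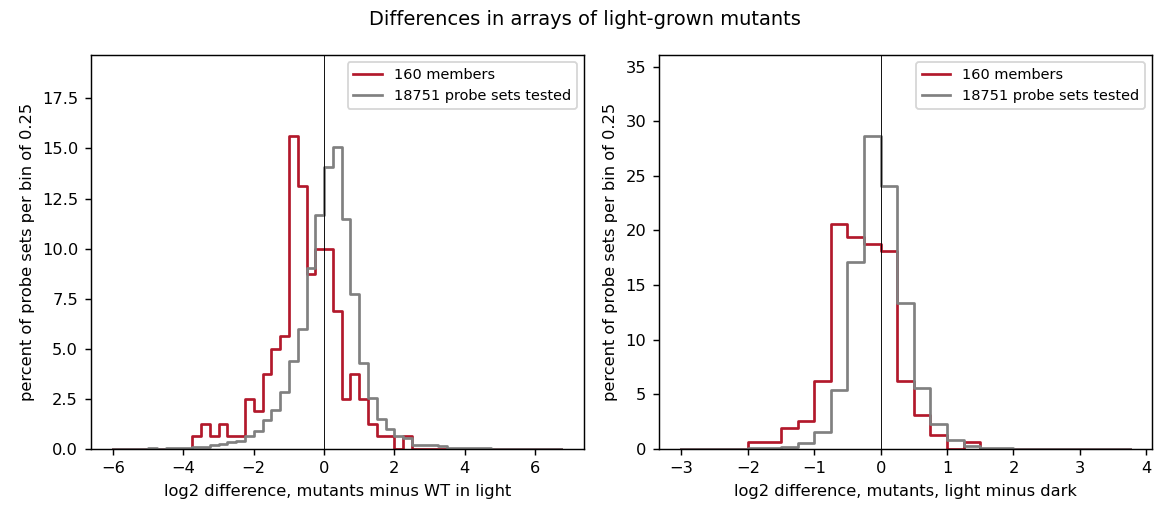
Distribution of log2 differences in bins of 0.25 for the 160 members (red) and all 18751 probe sets tested (grey), as percent of probe sets: left, mean of the light-grown mutants minus WT light; right, mean of the mutants in light minus in darkness. On the left the members' median is -0.54 and that of all probe sets 0.18; on the right they are -0.30 and -0.03.

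Within the mutants, most members were not called between light and darkness, but more values lay below 0 than above. The mean of the mutants in light minus in darkness had a median of -0.30 over members, against -0.03 over all probe sets, where WT had -2.82 by the rule. Of the 160 values in the mutants, 113 were below 0 and 47 above, and 78 had an unadjusted limma p under 0.05. Counting calls, csn3 had 7 members lower and 0 higher in light than in darkness (0.331% and 0.549% of all probe sets). For csn4 there were 15 and 1 (1.36% and 2.13%), a comparison that crosses the ranges of sample numbers, and for csn5-labelled arrays 13 and 4 (1.38% and 2.44%). In the mean of the mutants the counts were 9 and 1 (0.789% and 1.22%). The dark mutant arrays served the rule, so these values are descriptions.

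The unnamed 266330_at had the lowest value in the mean of the mutants (-1.80 ± 0.12). Of named members, AT3G54040 was called lower in light in all 3 lines, with differences of -1.29 in csn3, -1.06 in csn4 and -1.41 in csn5-labelled arrays. The peroxidase gene AT2G37130 was called in csn5-labelled arrays (-1.41 ± 0.26) and in csn4 (-1.33 ± 0.26), with -0.90 ± 0.26 in csn3. AT2G21045 was called in csn3 (-1.29 ± 0.22) and in csn5-labelled arrays (-1.18 ± 0.22), with -0.91 ± 0.22 in csn4. The linker histone gene HIS1-3 was called in csn4 alone (-1.05 ± 0.26), beside -0.37 ± 0.26 in csn3 and -0.89 ± 0.26 in csn5-labelled arrays. AT4G33150 was the named member called higher in light, in csn5-labelled arrays (1.23 ± 0.30). Without csn3 dark replicate 1, the array with a high actin ratio, csn3 had 11 members lower and 1 higher. In csn4 the 1 member called higher became 0 without dark replicate 3 or light replicate 1, 2 without light replicate 2 and 3 without dark replicate 2 or light replicate 3, and in csn5-labelled arrays the 4 became 1 without dark replicate 3. Differences between lines in this light response were not tested.

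The comparison of dark mutants with WT light crosses the ranges of sample numbers. The mean of the dark mutants minus WT light had a median of -0.16 over members, against 0.17 over all probe sets, and 96 of 160 values were below 0. By this measure 30 members were called lower in the dark mutants than in WT light and 8 higher (9.24% and 11.7% of all probe sets). The values ran from -3.001 for the unnamed 254828_at to 2.53 for the unnamed 251428_at. Of named members, AT1G12080 (-2.37 ± 0.26) and AT1G05340 (1.12 ± 0.16) were the lowest and the highest. Both groups served the rule, which asks only that each lie below WT dark.

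The comparison of mutants with each other in light used no array of the rule and was tested. In limma, 0 of 160 members were called between csn3 and csn4, beside 0.0213% of all probe sets, and 28 had an unadjusted p under 0.05; without csn4 replicate 3, 3 were called. Differences between these lines ran from -1.30 to 0.88 over members, so a p that misses the threshold does not show equal levels. Between csn3 and csn5-labelled arrays 7 members were called, all higher in csn3, beside 0.235% of all probe sets called higher and 0.384% either way. Between csn4 and csn5-labelled arrays 15 members were called higher in csn4 and 1 lower, beside 1.29% called higher and 1.93% either way. The csn3 comparison lies within 1 range of sample numbers and the csn4 comparisons cross ranges.

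The probe set 248252_at, unnamed here, had 377, 400.0 and 409 in csn3 arrays, 420.4, 516 and 311 in csn4 arrays and 106, 123 and 88.6 in csn5-labelled light arrays, with no overlap of the last with the others. It was higher by log2 1.52 ± 0.23 in csn3 (limma adjusted p = 0.0012) and by 1.56 ± 0.23 in csn4 (limma adjusted p = 0.000323) than in csn5-labelled arrays. The subtilase gene SBT4.12 was higher by 1.33 ± 0.25 in csn3 relative to csn5-labelled arrays (limma adjusted p = 0.00799), a call lost without csn3 light replicate 2 or csn5-labelled light replicate 3. In csn4 the SBT4.12 excess was 1.68 ± 0.25 (limma adjusted p = 0.000328), lost when these groups were fitted alone. The defensin-like gene AT4G22212 was higher by 1.39 ± 0.25 in csn4 (limma adjusted p = 0.00211) and by 1.17 ± 0.25 in csn3 (limma adjusted p = 0.0228), the second call being lost without any 1 of 5 arrays of those lines and the first when the groups were fitted alone. The peroxidase gene AT2G37130 was also called higher in csn3, by 1.19 ± 0.26 (limma adjusted p = 0.0237), as was the unnamed 254828_at. Without any 1 of the 6 light arrays of these lines 2 members were called between csn3 and csn5-labelled arrays, and neither of these genes was among them.

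The unnamed 247965_at had 666, 540.1 and 463 in csn3 arrays, 522, 1577 and 894 in csn4 arrays and 222, 216 and 104 in csn5-labelled light arrays. Its excess over csn5-labelled arrays was 2.099 ± 0.34 in csn4 and 1.43 ± 0.34 in csn3, and csn4 replicate 2 was its highest array. The csn4 call was lost when the groups were fitted alone, and the csn3 call (limma adjusted p = 0.0435) with quantile normalization, with a pseudocount of 100, without the filter, without the intensity trend and without any 1 of the 6 light arrays of its lines. The csn4 replicate 2 array also had the highest actin ratio, 48.9. Without it, 4 members instead of 16 were called between csn4 and csn5-labelled arrays. The count was 25 without csn4 replicate 3, and 5, 7 and 10 without csn5-labelled replicates 1, 2 and 3. AT3G05920 had 187, 122 and 63.1 in csn4, against at most 28.7 in csn5-labelled arrays. The chitinase family gene AT2G43610 had 340.4, 525 and 448 in csn4, against 185, 232 and 146 in csn5-labelled arrays. The unnamed 266799_at and 263284_at were also called there, and without csn4 replicate 2 neither remained, nor did AT3G05920 or AT2G43610. The member lower in csn4 was the unnamed 260101_at (-1.02 ± 0.26).

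**Figure D5:**
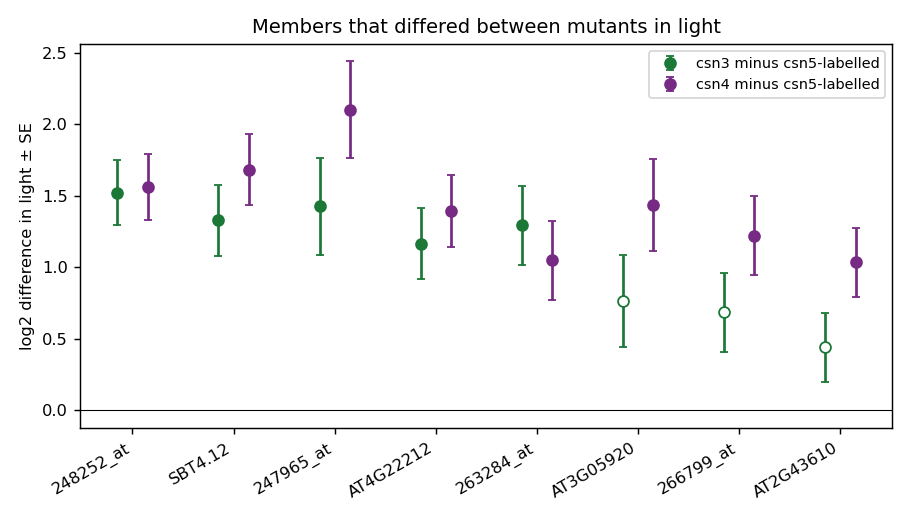
Log2 difference in light ± SE of csn3 (green) and csn4 (purple) from csn5-labelled arrays for the 8 members with the smallest adjusted p; filled points were called and open points were not. Called values run from 1.03 (AT2G43610 in csn4) to 2.099 (247965_at in csn4).

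Pathway genes were counted on lists chosen with earlier results of these data known, and 76 list genes were tested, 31 of them called lower and 5 higher in light mutants than in WT (9.21% and 11.4% of all probe sets), and 38 and 5 in dark mutants (11.7% and 13.5%). Of 13 genes induced in darkness or by carbon starvation, which include the members ATL8 and AT4G33150, 11 were called lower and 0 higher in dark mutants than in WT (11.7% and 13.5% of all probe sets), with a median of -2.11. In light 5 were lower and 3 higher (median -0.55), and WT light was lower than WT dark in 9 and higher in 1 (median -1.77; 9.77% and 9.48% of all probe sets). The list also held ATG8B and SIS, which are among the names left out. ATG8B did not meet the limits of the rule, at -1.30 ± 0.16 in dark mutants. SIS differed by -5.18 ± 0.28 in dark mutants and by -4.31 ± 0.34 in WT light against dark, within the limits of the rule. The calls of ATL8, AT4G33150 and SIS in both contrasts with WT dark are thus not independent of the rule. MCCA and IVD, enzymes of leucine breakdown, differed in dark mutants by -3.16 ± 0.21 and -2.99 ± 0.20, and AKINBETA1, a subunit of the SnRK kinase complex, by -2.38 ± 0.13. In light AT4G33150 and ATL8 (-0.75 ± 0.18) differed in sign.

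Other lists shared few genes with the members, and their counts stand beside 11.7% lower and 13.5% higher among all probe sets in dark mutants, 9.21% and 11.4% in light mutants and 9.77% and 9.48% in WT light against dark. Of 20 cell wall loosening genes, 0 of them members, 9 were called lower and 1 higher in dark mutants, 6 and 0 in light mutants, and 1 and 1 in WT light against dark. Of 3 lignin and suberin genes, including the member AT5G66390, 2 were lower in dark mutants, and 1 was lower and 1 higher in light. Of 8 auxin response genes 6 were lower in dark mutants and 4 in light mutants, with 0 higher. Of 7 transport genes, all of the SWEET family, 3 were lower in each, among them SWEET11, a sucrose exporter (-3.22 ± 0.16 in darkness). The 4 genes tested from the list of phytochrome-interacting factors and shade were XTH33, IAA29, FHL and BIM1, with no phytochrome-interacting factor among them. Of these 4, 2 were lower in darkness and 1 in light. Of 3 lipid breakdown genes 1 was lower in darkness and 1 higher in light. From the gibberellin and brassinosteroid list only the gibberellin genes GID1A, GID1B and GID1C were tested, and 0 of these 3 were called. Of 9 photosynthesis genes, 1 was lower and 4 higher in dark mutants, 7 were lower in light mutants, and 8 were higher in WT light than dark. The cellulose synthesis and aquaporin lists had 0 genes tested.

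Markers of organs differed between the same groups, in part with the members and in part not. The summed signal of 5 root markers (EXPA7, EXPA18, PYK10, AT4G26010 and AT5G17820, of 11 listed) was 4699 to 8953 in dark mutants, against 24666 to 27348 in WT dark, and 4733 to 8227 in light mutants, against 17451 to 18219 in WT light. PYK10 alone had group means of 22508 in WT dark and 16270 in WT light, so the sum mostly follows that gene. Of these 5, 4 were called lower in dark mutants, 4 in light mutants and 1 in WT light against dark. Counts of markers called lower stand beside 11.7%, 9.21% and 9.77% of all probe sets in these 3 contrasts. For 3 genes listed here as hypocotyl markers (EXPA8, XTH18 and XTH19, of 6 listed) the sum was 592 to 1648 in dark mutants, against 4101 to 5312 in WT dark. EXPA8 and XTH19 are among the names left out, but neither met the limits of the rule. Their differences between WT light and WT dark were -0.91 ± 0.34 and -0.99 ± 0.32. Whether these 3 genes mark the hypocotyl apart from the root was not tested. From a longer hypocotyl list these 3 genes and THE1 were tested, and all 4 were called lower in dark mutants. Of these 4, 2 were lower in light mutants and 0 in WT light against dark, where all members were lower. In light the sum of EXPA8, XTH18 and XTH19 was 1307 to 2362 in mutants, against 2103 to 2812 in WT. The 3 genes differed in sign there, with EXPA8 at -3.06 ± 0.28, XTH19 at -0.83 ± 0.26 and XTH18 at 0.61 ± 0.19. For 3 markers of photosynthetic tissue (PRK, RCA and PSAN, of 6 listed) the summed signal was 11172 to 25501 in dark mutants, against 5222 to 7988 in WT dark. RCA alone was called there (2.91 ± 0.29), beside 0.33 for PRK and -0.35 for PSAN. In light the order turned, with a sum of 8737 to 23710 in mutants, against 47595 to 52117 in WT. For the leaf markers FMA and SPCH, of 8 listed, the sum was 74.9 to 407 in dark mutants, against 67.1 to 141 in WT dark. In light it was 137 to 299 in mutants, against 332 to 404 in WT. Both genes were dim, with group means of 80.8 to 226 for FMA and 20.9 to 149 for SPCH. Of 4 genes tested from a longer leaf and cotyledon list, 0 were called in darkness and 1, FMA, was lower in light. PHV alone of these 4 lay above WT in light (0.61 ± 0.17) and was not called. Root and photosynthetic markers were measured in every group, as whole seedlings would give. The part of organ proportions in the members' differences was not tested.

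Probe sets outside the set with 1 gene name in the gene table were compared with the members' mean over the 8 groups. Unnamed probe sets were not searched. The group means of TET3, a tetraspanin (r = 0.996), AT4G13530 (r = 0.994) and AT4G11190 (r = 0.992) followed it most closely. AT4G11190 was left out by name and lay within the limits, at -5.52 in dark mutants and -4.69 in WT light against dark. Its likeness is thus not independent of the rule. These correlations describe 8 means that share their arrays. TET3 had 602 to 897 in dark mutants, against 2616, 2967 and 2532 in WT dark, and 460.1 to 787 in light mutants, against 698, 787 and 641 in WT light.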

How the data were processed

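Transcript signals were measured in 24 samples of whole seedlings, and the authors made the deposited signal intensities (linear, 1 value per probe set and array) with the MAS5 software, a tool listed per the submitters' processing notes. Its version and scaling target are not given in the sources used here. Arrays were scaled to a 2% trimmed mean of 500 (factors 0.99989 to 0.99992), 50 was added and log2 taken, so differences of dim probe sets understate ratios of signals. From 22810 probe sets, 64 controls were dropped, and tests used the 18751 that reached a signal of 100 in 3 or more arrays. limma 3.58.1 under R 4.3.3 (lmFit, eBayes with trend) fitted 8 group means to the 24 arrays, with Benjamini-Hochberg adjustment over all probe sets tested, and every adjusted p is from that fit. Errors of log2 differences are its standard errors, and 3 arrays per group limit the precision. The script was tested on simulated data. Samples were grouped by their labels, and 0 columns were left out.

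The members and the gene lists were chosen with earlier results of these data known. The lists covered darkness and carbon starvation, cell wall loosening, auxin, gibberellin and brassinosteroid, phytochrome-interacting factors and shade, lipid breakdown, photosynthesis, lignin and suberin, cellulose, aquaporins, transport, and root, hypocotyl and leaf markers. Named members include the 8 highest in WT dark, the 8 steepest dark differences, the 6 highest and 6 lowest in light and up to 8 called between mutants, and up to 4 genes per list by adjusted p. Gene names came from the platform annotation, with symbols from a gene table of TAIR10.1 used for names only. Same-numbered arrays did not deviate together (mean r -0.007 over 70 pairs, and 0.002 over 140 pairs with different numbers), so numbers were not used as pairs. Alternatives were quantile normalization, other pseudocounts and filters, fits without the trend, of the groups alone or with a replicate block, and leaving out arrays.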

Additional observations from a re-analysis of the deposited data

Results flagged for a closer look

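Of the members that differed between mutant lines in light, the 8 with the smallest adjusted p are listed here because a limma test of the difference itself passed the threshold. In csn3 against csn5-labelled arrays, the log2 differences were 1.52 for 248252_at (limma adjusted p = 0.0012), 1.33 for SBT4.12 (limma adjusted p = 0.00799), 1.43 for 247965_at (limma adjusted p = 0.0435), 1.17 for AT4G22212 (limma adjusted p = 0.0228) and 1.29 for 263284_at (limma adjusted p = 0.0219). In csn4 against csn5-labelled arrays they were 1.56 for 248252_at (limma adjusted p = 0.000323), 1.68 for SBT4.12 (limma adjusted p = 0.000328), 2.099 for 247965_at (limma adjusted p = 0.000692), 1.39 for AT4G22212 (limma adjusted p = 0.00211), 1.44 for AT3G05920 (limma adjusted p = 0.0134), 1.22 for 266799_at (limma adjusted p = 0.0142), 1.03 for AT2G43610 (limma adjusted p = 0.0181) and 1.05 for 263284_at (limma adjusted p = 0.0321). These 13 values, all higher in csn3 or csn4 than in csn5-labelled arrays, are part of the 7 and 16 members called, among which 260101_at was lower in csn4 (-1.02). The 2 calls of 248252_at held in every alternative run. When the groups were fitted alone, the other 7 of the 8 csn4 calls listed were lost. The csn3 call of 247965_at was lost with quantile normalization (limma adjusted p = 0.0802), with a pseudocount of 100, without the filter on low signals, without the intensity trend and without any 1 of the 6 light arrays of its lines. That of 263284_at was lost with quantile normalization (limma adjusted p = 0.0571), without the intensity trend and without any 1 light array of its lines but csn3 replicate 2. That of AT4G22212 was lost with a pseudocount of 100, without the intensity trend and without any 1 light array of its lines but csn5-labelled replicate 3. Without csn4 light replicate 2, the csn4 values of 266799_at, AT2G43610 and 263284_at were 0.96, 0.91 and 0.68 and no longer passed, and that of AT3G05920 was 1.41 (limma adjusted p = 0.0651). With a pseudocount of 100 the csn4 calls of all these genes were lost. That of AT3G05920 was also lost without csn4 light replicate 1 or csn5-labelled light replicate 1 or 2, and that of AT2G43610 without csn5-labelled light replicate 1 or 3. For 263284_at it was also lost with quantile normalization, without the intensity trend and without any 1 csn5-labelled light array.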

How the results depend on the processing

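The number of members by the rule was 160, and 153 to 167 without any 1 array, 170 with quantile normalization, 212 and 126 with pseudocounts of 16 and 100, and 159 with a minimum signal of 200. Counts of members called lower or higher than WT stayed within 1.5 times under the alternatives run, apart from the counts that follow. In light, 7 members were called between csn3 and csn5-labelled arrays, and 4 with quantile normalization, 4 with a pseudocount of 100, 12 without the 3 arrays of high actin ratio, 2 without the intensity trend, 14 in a fit of those groups alone, and 2 to 10 without any 1 array. Between csn4 and csn5-labelled arrays 16 were called, and under the same alternatives 8, 4, 6, 9 and 1, and 4 to 25 without any 1 array. Between csn3 and csn4 the count of 0 became 0 to 3 without any 1 array. For light against darkness, csn3 had 7 lower, and 4 with a pseudocount of 100, 14 without the high-actin arrays and 5 to 11 without any 1 array; its count of 0 higher became 1 without those arrays and 0 to 1 without any 1 array. In csn4, 15 lower became 5 with a pseudocount of 100 and 3 in the groups alone, and 1 higher became 2 with quantile normalization, 2 without the high-actin arrays, 0 in the groups alone and 0 to 3 without any 1 array. In csn5-labelled arrays, 13 lower became 21 and 6 with pseudocounts of 16 and 100, and 4 higher became 1 to 6 without any 1 array. The cause of these changes was not tested. The replicate block gave 15 calls between csn4 and csn5-labelled arrays, 8 between csn3 and csn5-labelled arrays and 35 members lower in csn4 light, and the check of pairing showed no shared deviation. No value reversed. The comparison of promoter motifs was not run, since no promoter sequences were used here. Signals near or below 100 carry differences that the added 50 shrinks.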
